A study of Mus musculus with 20 samples.

Results

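Complement transcripts were examined across the hippocampus of mice with and without miR-34a and with and without a vascular amyloid transgene. The 9 genes are the C1q chains C1qa, C1qb and C1qc, the components C3 and C4b, the receptors C3ar1 and C5ar1, and Itgam and Itgb2, which encode the subunits of complement receptor 3. They were chosen by name from the 39056 genes counted, with earlier results of these data known, so their counts beside the shares of all genes are a description. All 9 were found, all 9 had enough reads to be tested, and 16107 genes were tested in all.

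The mice were 20 females of 12 to 13 months in 4 groups of 5, and RNA of each left hippocampus made 1 library. Mice labelled Tg-SwDI carry human APP with the Swedish, Dutch and Iowa mutations under the Thy1 promoter, which is active mainly in neurons, and Non-Tg mice lack this transgene. miR-34a KO mice carry a whole-body, constitutive deletion of miR-34a, and miR-34a WT mice carry the intact gene, so a difference between KO and WT cannot be placed in one cell type. Without the transgene there were WT Non-Tg and KO Non-Tg mice and with it WT Tg-SwDI and KO Tg-SwDI mice, and a single mouse is given by its group and its labelled replicate number. The comparisons ask whether the transgene changed complement transcripts, whether loss of miR-34a changed them with and without the transgene, and whether the effect of loss differed between these settings. Total counts per library were 19549622 to 21066868.

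Complement is a cascade of plasma and tissue proteins that tags material for removal. In the classical pathway, C1q, built from the A, B and C chains, binds a target such as an antibody complex, amyloid or a synapse, and its proteases cleave C4 and C2, which leads to cleavage of C3. Fragments of C3 coat the target and are read by complement receptor 3 (CD11b/CD18, from Itgam and Itgb2) on phagocytes, while the small fragments C3a and C5a act on the receptors C3aR1 and C5aR1. In the brain, C1q and these receptors are made mainly by microglia, C4 and C3 also by astrocytes and other cells, and the system is known for its part in the removal of synapses by microglia.

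The labels were checked first. Thy1 lay between 684 and 769 CPM (counts scaled to TMM-adjusted library sizes) without the transgene, in 10 mice, and between 1903 and 2327 CPM in WT Tg-SwDI and 2452 and 3316 CPM in KO Tg-SwDI mice, so the transgene label was borne out in each mouse. Thy1 thus also differed between the Tg-SwDI groups without overlap, with a log2 fold change of 0.37 for KO against WT (SE 0.06, adjusted p = 0.00416, edgeR). Xist lay between 326 and 666 CPM in all 20 mice. miR-34a was not analysed here. Transcripts of hippocampal subfields were present in every group, with Zbtb20 the most abundant at a mean of 240 to 294 CPM.

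Some libraries stood apart. KO Tg-SwDI replicate 8 had 14.56% of its counts on mitochondrial genes, against 6.94 to 8.76% in the other 19 libraries. The median share was 8.40% in KO Tg-SwDI libraries (8.11 to 14.56%) and 7.53% in WT Tg-SwDI libraries (7.19 to 8.31%). Ttr, the leading transcript of choroid plexus, a tissue next to the hippocampus, was above 1000 CPM, a limit set after its values were seen, in 3 of 5 WT Non-Tg, 0 of 5 KO Non-Tg, 4 of 5 WT Tg-SwDI and 4 of 5 KO Tg-SwDI libraries. The amount of choroid plexus therefore differed between the Non-Tg groups, and the comparisons that use the KO Non-Tg group are given below with choroid plexus content as a covariate as well. WT Non-Tg replicate 2 was the highest mouse of its group for 6 of the 9 genes (C1qa, C1qb, C1qc, C4b, Itgam and Itgb2). WT Tg-SwDI replicate 3 was the lowest of its group for 7 of the 9 (all but C4b and C5ar1), and KO Tg-SwDI replicate 5 for 6 of the 9 (C1qb, C1qc, C3, C3ar1, C5ar1 and Itgam).

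The microRNA that the KO mice lack recognizes transcripts through its seed. mmu-miR-34a-5p (chr4:150068473-150068494, plus strand, GRCm38.p6) is shown from RefSeq with the seed, bases 2 to 8, in capitals, because an exact match to the seed in a 3′UTR is the sequence through which a direct target would be read. Only C1qa among the 9 genes held an exact match (CACTGCC, in capitals) in its annotated 3′UTR, starting at position 177 of 237 bases (chr4:136895959-136895988, minus strand, mm10), while 2769 of 20728 genes with an annotated 3′UTR (13.4%) held at least 1.
mmu-miR-34a-5p: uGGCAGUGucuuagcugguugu
C1qa 3′UTR: atgtttctgcaCACTGCCcagtggtttctt
The base that follows the match in C1qa is not an A. The match was searched on the transcript strand of 1 transcript per gene, and it describes the letters only, not binding.

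The start sites were searched as well, since the 9 genes moved together in the comparisons with the transgene. RefSeq promoters of 250 bases before to 50 bases after the start were matched for 6 genes, C1qb, C1qc, C3, C3ar1, C5ar1 and Itgam. On either strand, GAGGAAGT, a form of the site for PU.1 (a factor of myeloid cells), was found in C1qc alone and in 3.2% of 32851 promoters. TTGCNNAA, a short form of the C/EBP site, was found in C3 alone and in 10.8% of promoters. The interferon-stimulated response element (3.44% of promoters) and the gamma-activated site TTCNNNGAA (8.3% of promoters) were found in none of the 6. TATAAA was found in C3, from position 15 after the annotated start, in C3ar1, from -235, and in 13.6% of promoters. Windows around the PU.1 and C/EBP matches are shown, with the match in capitals,, as the only matches to these factors. The C1qc window (chr4:136893091-136893120, minus strand, GRCm38.p6) holds the reverse complement of the PU.1 letters, with its first base at -195 from the start, and the C3 window (chr17:57228163-57228192, minus strand, GRCm38.p6) holds the C/EBP letters from -45.
C1qc promoter: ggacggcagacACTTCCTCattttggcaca
C3 promoter: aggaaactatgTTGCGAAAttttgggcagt
None of the 5 motifs was found in more than 2 of the 6 promoters, and no match says only that these letters are not in this window.

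All 9 complement genes were higher with the transgene, in mice with and without miR-34a. In the WT mice 9 of 9 were called higher at an adjusted p (FDR) under 0.05 by edgeR's quasi-likelihood test, where 3.94% of all genes tested were called higher, and 8 of 9 did not overlap between the groups, where 5.1% of all genes lay higher without overlap. In the KO mice 9 of 9 were called higher, against 12.5% of all genes, and 9 of 9 did not overlap, against 8.47%. The median log2 fold change of the 9 genes was 1.46 in WT and 2.24 in KO mice, beside 0.0 and -0.0048 over all genes. These values and the KO values below share mice, so they are set side by side and not correlated.

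Loss of miR-34a moved fewer of them. In Tg-SwDI mice C1qb, C1qc and Itgam were higher in KO than in WT mice, 3 of 9 genes where 1.48% of all genes were called higher. The same 3 did not overlap between the groups, where 2.04% of all genes lay higher without overlap, and all 9 fitted changes were above 0 (50.7% of all genes were), with a median of 0.40 beside 0.0026 over all genes. DESeq2 and edgeR's exact test each called 4 of the 9, where DESeq2 called 4.55% of all genes in either direction. Thy1, whose promoter drives the transgene, was higher in the same comparison, as given above, and its part in these changes was not tested. In Non-Tg mice 0 of 9 were called in the edgeR test (0.0% of all genes), and all 9 fitted changes were below 0 (49.1% of all genes were above 0), with a median of -0.28 beside -0.0021 over all genes. At an unadjusted p under 0.05, 4 of the 9 were lower in KO Non-Tg mice, namely C1qa, C1qb, C1qc and C3ar1, where 4.51% of all genes were lower at that threshold, and DESeq2 called 0. Each of these 4 genes missed the unadjusted threshold in some fit that left out a single mouse. C3ar1 missed it only without WT Non-Tg replicate 4, and C1qb only without WT Non-Tg replicate 2. C3ar1 ranged from -0.44 to -0.29 over single mice left out. Without WT Non-Tg replicate 2, only C3ar1 passed that threshold (log2 -0.36), C1qa was at -0.19, C1qb at -0.17, C1qc at -0.13 and Itgb2 at -0.11, and 7 of 9 were below 0. Leaving out any other Non-Tg mouse left 2 to 5 of the 9 at that threshold, and without KO Non-Tg replicate 7, 6 of 9 were below 0. Without WT Non-Tg replicate 7, C3 was at -0.19 beside -0.44 with all mice. Choroid plexus markers were lower in the same comparison, 10 of 10 at an unadjusted p under 0.05 with a median log2 of -2.74 and 0 called by edgeR. With choroid plexus content as a covariate, C3ar1 alone passed the unadjusted threshold (log2 -0.39), C1qa was at -0.25, C1qb at -0.20, C1qc at -0.17 and C3 at -0.30, C4b was at -0.0024, C5ar1 at -0.01, and the median was -0.20. With the same covariate, 9 of 9 were still called higher with the transgene in KO mice. That fit called 1221 genes of the whole table in either direction, in place of 3351 without the covariate. The mice of a group are separate animals, so the spread behind each test is that between mice. In bulk tissue, fewer or more cells of a type and less or more RNA per cell cannot be told apart.

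**Figure D1:**
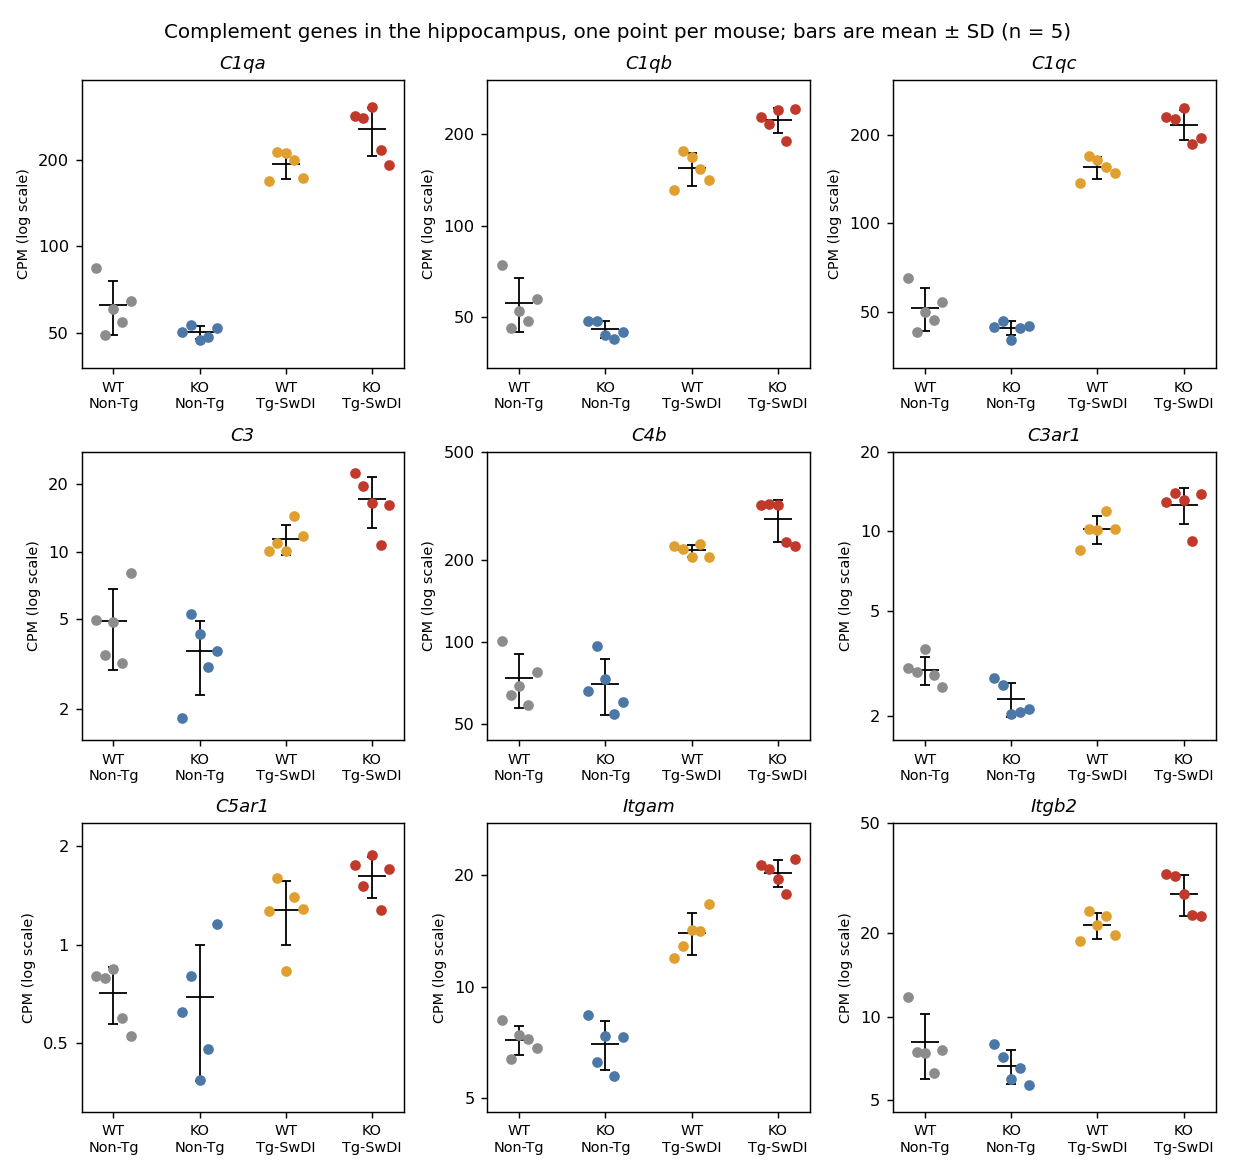
CPM of the 9 genes on log axes in each of 20 mice by group (WT or KO of miR-34a, Non-Tg or Tg-SwDI), with the mean ± SD of 5 mice as bars. Every Tg-SwDI point lies above every Non-Tg point of the same miR-34a genotype except for C5ar1 in WT mice, and KO Tg-SwDI points lie above all WT Tg-SwDI points for C1qb, C1qc and Itgam.

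The C1q chains are encoded in 18.7 kb of chromosome 4, all on the minus strand, and this cluster lies 13.2 Mb from Mir34a on the same chromosome. Per kilobase of exon they had the highest levels of the 9 transcripts. C1qa (ENSMUSG00000036887, chromosome 4, 136895917 to 136898803, mm10), the A chain, was at 83.9, 49.0, 60.4, 54.4 and 64.3 CPM in WT Non-Tg replicates 2, 3, 4, 6 and 7 and at 50.2, 53.1, 47.0, 48.2 and 51.9 CPM in KO Non-Tg replicates 1, 2, 4, 7 and 8. It was at 169, 214, 212, 201 and 173 CPM in WT Tg-SwDI replicates 3, 4, 5, 6 and 7, and at 286, 280, 306, 217 and 193 CPM in KO Tg-SwDI replicates 1, 2, 3, 5 and 8. All Tg-SwDI mice were above all Non-Tg mice, and 3 KO Tg-SwDI mice formed the top of the range while replicate 8 lay within the WT range and replicate 5 just above it. The fold of Tg-SwDI over Non-Tg was 3.10 in WT mice (log2 1.63, SE 0.14, adjusted p = 1.6e-07) and 5.12 in KO mice (log2 2.35, SE 0.14, adjusted p = 4.64e-10). KO against WT gave a log2 fold change of 0.40 in Tg-SwDI mice (95% interval 0.12 to 0.69, adjusted p = 0.114), which did not pass, whereas DESeq2, with an adjusted p of 0.0298, and the exact test of edgeR both called C1qa.

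C1qb (ENSMUSG00000036905, chromosome 4, 136880129 to 136886187), the B chain, was at 74.5, 46.0, 52.5, 48.7 and 57.6 CPM in WT Non-Tg mice and at 48.5, 48.8, 43.8, 42.6 and 44.8 CPM in KO Non-Tg mice, in the same order of replicates. It was at 131, 176, 168, 153 and 141 CPM in WT Tg-SwDI mice and at 228, 216, 239, 189 and 241 CPM in KO Tg-SwDI mice. Every KO Tg-SwDI mouse was above every WT Tg-SwDI mouse, whereas the Non-Tg groups overlapped. The KO level was 1.45-fold the WT level in Tg-SwDI mice (log2 0.53, SE 0.10, adjusted p = 0.0144), and the level with the transgene was 2.75-fold that without it in WT mice (adjusted p = 7.51e-09) and 4.87-fold in KO mice (adjusted p = 3.54e-12). When WT Tg-SwDI replicate 7 was left out, the KO effect in Tg-SwDI mice was 0.50 and missed the threshold (adjusted p = 0.0523).

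C1qc (ENSMUSG00000036896, chromosome 4, 136889804 to 136893065), the C chain, was at 65.2, 42.9, 49.9, 46.9 and 53.9 CPM in WT Non-Tg mice and at 44.6, 46.8, 40.4, 44.3 and 44.9 CPM in KO Non-Tg mice. It was at 137, 170.0, 165, 156 and 148 CPM in WT Tg-SwDI mice and at 230.0, 226, 246, 186 and 195 CPM in KO Tg-SwDI mice. Again the Tg-SwDI groups did not overlap and the Non-Tg groups did. The KO level was 1.40-fold the WT level in Tg-SwDI mice (log2 0.48, SE 0.09, adjusted p = 0.00922).

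The chains of C1q are assembled in equal number, and C1qb over C1qa in CPM lay between 0.76 and 0.97 in 19 of the 20 mice. The ratio was 0.90 ± 0.03 (SD, n = 5) in WT Non-Tg mice, 0.91 ± 0.04 in the KO Non-Tg group and 0.79 ± 0.03 in WT Tg-SwDI mice, and 0.77 to 0.87 in 4 KO Tg-SwDI mice. The fifth, replicate 8, the library rich in mitochondrial counts, was at 1.25, since its C1qb was the highest and its C1qa the lowest of the group. Without this mouse the KO effect in Tg-SwDI mice was 0.50 for C1qb (adjusted p = 0.0335), 0.52 for C1qc (adjusted p = 0.00956), 0.49 for C1qa (adjusted p = 0.0597) and 0.51 for Itgam (adjusted p = 0.00789) in the same edgeR test, so C1qb, C1qc and Itgam were called with and without it. With mitochondrial genes left out of the counts, a setting chosen after seeing the data, C1qb was at 0.53 (adjusted p = 0.0142).

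C4b and C3 encode the components that are cleaved and deposited. C4b (ENSMUSG00000073418, chromosome 17, 34728380 to 34743882) was at 58.8 to 101 CPM (median 68.8) in WT Non-Tg, 54.7 to 96.5 CPM (median 66.3) in KO Non-Tg, 204 to 229 CPM (median 220) in WT Tg-SwDI and 225 to 320 CPM (median 317) in KO Tg-SwDI mice. In KO Tg-SwDI mice, replicates 1, 2 and 3 were at 317, 320 and 319 CPM and replicates 5 and 8 at 233 and 225 CPM, so replicate 8 lay within the WT range and replicate 5 just above it. C4b was 2.93-fold higher with the transgene in WT (adjusted p = 3.21e-06) and 4.03-fold higher in KO mice (adjusted p = 5.05e-08), and KO against WT in Tg-SwDI mice gave a log2 of 0.38 (95% interval 0.05 to 0.71, adjusted p = 0.194). C4a, its near copy, shares 35.2% of the 50-base words of C4b, was at 0.38 to 1.80 CPM in all mice, and was called in none of the comparisons. C4a over C4b in CPM was 0.0145 in WT Non-Tg and 0.00421 in WT Tg-SwDI mice, means of 5 mice each. The treatment of reads that match both copies was not given, so the level of C4b and this ratio may hold reads of the other copy or lack shared ones.

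C3 (ENSMUSG00000024164, chromosome 17, 57203970 to 57228136) was far less abundant and varied more. It was at 4.96, 3.47, 4.88, 3.20 and 8.06 CPM in WT Non-Tg and 1.82, 5.31, 4.29, 3.07 and 3.63 CPM in KO Non-Tg mice. It was at 10.1, 10.9, 10.2, 14.4 and 11.8 CPM in WT Tg-SwDI and 22.4, 19.7, 16.6, 10.8 and 16.2 CPM in KO Tg-SwDI mice. Each genotype was higher with the transgene, and the KO Tg-SwDI group overlapped the WT Tg-SwDI group through replicate 5. The fold of Tg-SwDI over Non-Tg was 2.33 in WT (log2 1.22, SE 0.26, adjusted p = 0.00654) and 4.73 in KO mice (log2 2.24, SE 0.27, adjusted p = 5.07e-06). KO against WT in Tg-SwDI mice gave the widest interval of the 9 genes, a log2 of 0.58 (95% interval 0.07 to 1.09, adjusted p = 0.198).

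C3ar1 (ENSMUSG00000040552, chromosome 6, 122847138 to 122856161), the receptor for C3a, was at 3.02, 2.92, 3.57, 2.85 and 2.58 CPM in WT Non-Tg and 2.77, 2.61, 2.03, 2.06 and 2.13 CPM in KO Non-Tg mice. It was at 8.49, 10.2, 10.1, 11.9 and 10.2 CPM in WT Tg-SwDI and 12.9, 14.0, 13.1, 9.17 and 13.8 CPM in KO Tg-SwDI mice. Its fold with the transgene was the largest of the 9 genes, 3.40 in WT (adjusted p = 2.2e-10) and 5.42 in KO mice (adjusted p = 2.41e-13). Of the KO Tg-SwDI mice, 4 were above all WT Tg-SwDI mice and replicate 5 lay within the WT range, and KO against WT gave a log2 of 0.31 (adjusted p = 0.137). Without replicate 5 it was 0.41 (adjusted p = 0.0441).

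C5ar1 (ENSMUSG00000049130, chromosome 7, 16246743 to 16259540), the receptor for C5a, was the least abundant, with 8 to 39 counts in a library. It was at 0.525 to 0.845 CPM (median 0.793) in WT Non-Tg, 0.386 to 1.16 CPM (median 0.621) in KO Non-Tg, 0.834 to 1.61 CPM (median 1.29) in WT Tg-SwDI and 1.28 to 1.88 CPM (median 1.71) in KO Tg-SwDI mice. The WT groups overlapped and the KO groups did not. The fold with the transgene was 1.79 in WT mice (adjusted p = 0.0467) and 2.35 in KO mice (adjusted p = 0.00051), the smallest of the 9 in each. Its call in WT mice was lost without any 1 of 14 of the 20 mice, with adjusted p up to 0.148, so at this depth it stood at the threshold.

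Itgam (ENSMUSG00000030786, chromosome 7, 128062640 to 128118491) encodes CD11b, the alpha subunit of complement receptor 3. It was at 8.13, 6.39, 7.42, 7.24 and 6.82 CPM in WT Non-Tg and 8.41, 6.26, 7.38, 5.75 and 7.30 CPM in KO Non-Tg mice. It was at 11.96, 12.9, 14.2, 14.2 and 16.7 CPM in WT Tg-SwDI and 21.2, 20.8, 19.6, 17.8 and 22.1 CPM in KO Tg-SwDI mice. The Non-Tg groups overlapped over most of their range, and every KO Tg-SwDI mouse was above every WT Tg-SwDI mouse. The KO level was 1.45-fold the WT level in Tg-SwDI mice (log2 0.54, SE 0.10, adjusted p = 0.00593) and 0.97-fold in Non-Tg mice (adjusted p = 0.976). Gm49368, a gene on the same strand that shares 73.9% of the 50-base words of Itgam and was added after the annotation was read, had at most 2 counts in any mouse. How reads falling in both genes were counted was not given in the sources used here. If they were given to neither, the level of Itgam and its ratio to Itgb2 are too low and the ratio of Itgax to Itgam is too high.

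Itgb2 (ENSMUSG00000000290, chromosome 10, 77530252 to 77565708) encodes CD18, the beta subunit that Itgam shares with other alpha chains. It was at 11.7, 7.43, 7.37, 6.24 and 7.58 CPM in WT Non-Tg and 7.98, 7.11, 5.93, 6.52 and 5.66 CPM in KO Non-Tg mice. It was at 18.7, 24.1, 21.5, 23.0 and 19.7 CPM in WT Tg-SwDI and 32.7, 32.2, 27.8, 23.3 and 23.2 CPM in KO Tg-SwDI mice. KO Tg-SwDI replicates 5 and 8 lay within the WT Tg-SwDI range and the other 3 above it. The fold with the transgene was 2.65 in WT (adjusted p = 2.82e-07) and 4.19 in KO mice (adjusted p = 2.75e-10), and KO against WT in Tg-SwDI mice gave a log2 of 0.38 (adjusted p = 0.121). Without WT Non-Tg replicate 2, which enters that contrast through the shared spread, its adjusted p was 0.0489. Itgam over Itgb2 in CPM was 0.92 ± 0.17 (SD, n = 5) in WT and 1.07 ± 0.19 in KO mice without the transgene, and 0.66 ± 0.12 in WT and 0.74 ± 0.13 in KO mice with it, with overlap between groups.

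**Figure D2:**
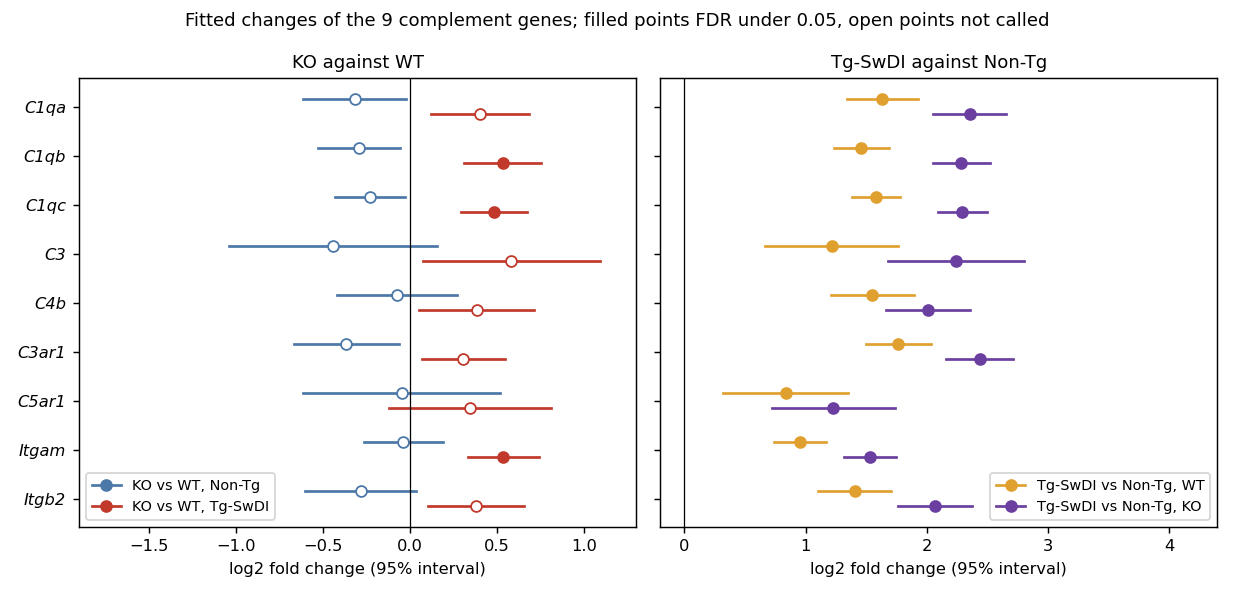
Fitted log2 fold changes of the 9 genes with 95% intervals, KO against WT on the left and Tg-SwDI against Non-Tg on the right, filled where the adjusted p was under 0.05. On the left the Tg-SwDI points are all above 0 with C1qb, C1qc and Itgam filled and the Non-Tg points are all below 0 and open, and on the right all points are filled.

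Per kilobase of exon, the genes kept nearly the same order of levels in the 4 groups. In WT Tg-SwDI mice C1qa was at 186 ± 20.5 CPM per kilobase (SD, n = 5), C1qb at 142 ± 17.1, C1qc at 80.3 ± 6.86, C4b at 38.1 ± 1.95, Itgb2 at 7.01 ± 0.74, Itgam at 2.78 ± 0.36, C3ar1 at 2.36 ± 0.28, C3 at 2.23 ± 0.34 and C5ar1 at 0.50 ± 0.11. Itgam, C3ar1 and C3 overlapped their neighbours in that order and the others did not. C3ar1 and C3 changed places in the other 3 groups, where they overlapped as well. C1qa and C1qb overlapped in WT Non-Tg and KO Tg-SwDI mice.

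The KO effect was then compared between Tg-SwDI and Non-Tg mice by the interaction in that edgeR model. C1qb and C1qc were called, 2 of 9 genes where 0.428% of all genes were called higher, and all 9 terms were above 0 (51.9% of all genes were). The difference in KO effect was a log2 of 0.82 for C1qb (SE 0.15, adjusted p = 0.0199) and 0.71 for C1qc (SE 0.13, adjusted p = 0.0199). C1qa at 0.72 (adjusted p = 0.0854), Itgam at 0.57 (adjusted p = 0.0563), C3ar1 at 0.67 (adjusted p = 0.0745) and Itgb2 at 0.66 (adjusted p = 0.109) did not pass. C3 at 1.02 (adjusted p = 0.171), C4b at 0.46 (adjusted p = 0.301) and C5ar1 at 0.39 (adjusted p = 0.578) did not pass either. Over single mice left out, the C5ar1 term ranged from 0.24 to 0.66. Without KO Non-Tg replicate 7 the adjusted p was 0.0513 for C1qb and 0.0509 for C1qc, so both calls were lost without that mouse. The Non-Tg groups entering this term differ in choroid plexus content, and with that content as a covariate C1qb was at 0.74 and C1qc at 0.66, each with an adjusted p of 0.0498. DESeq2 called 6 of the 9, and 2.99% of all genes in either direction.

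Microglia markers moved with the complement genes. The 12 homeostatic microglia markers summed to 416 ± 31.0 CPM (SD, n = 5) in WT and 394 ± 7.21 CPM in KO mice without the transgene, and to 819 ± 53.6 CPM in WT and 981 ± 124 CPM in KO mice with it. All 12 were called higher with the transgene in WT and in KO mice, where 3.94% and 12.5% of all genes were. In the KO group of Tg-SwDI mice 3 (Sall1, Siglech and Selplg) were called higher, where 1.48% of all genes were. All 12 fitted changes were above 0 there (50.7% of all genes were), with a median of 0.27. Border macrophage markers, which mark another brain cell that makes C1q, summed to 10.2 ± 2.12 CPM in WT and 13.9 ± 4.32 CPM in KO Tg-SwDI mice, led by Mrc1, with 0 of 7 called in any comparison by edgeR. For KO against WT in Tg-SwDI mice 7 of 7 fitted changes were above 0 with a median of 0.49. At an unadjusted p under 0.05, 2 of 7 were higher, where 10.8% of all genes were. Markers of monocytes, neutrophils and lymphocytes summed to at most 1.53, 1.47 and 1.47 CPM in any mouse. Among markers of other brain cells, the astrocyte gene Gfap (log2 0.51, adjusted p = 0.0412) and the endothelial gene Ly6c1 (log2 0.46, adjusted p = 0.00702) were called higher in the same comparison, and both are named after their values were seen. The part of these cells in the complement changes was not tested.

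Relative to the microglia list, 5 of the 9 complement genes were higher with the transgene without overlap between groups in WT mice and 6 of 9 in KO mice, where 0.633% and 0.937% of all genes tested were on the same relative scale. The log2 level of each gene minus the mean log2 level of the 12 markers was taken in each mouse, as a description without a test. With the transgene the mean of the list rose from 4.89 to 5.77 in WT and from 4.83 to 6.02 in KO mice. A gene that did not change therefore falls on this scale. The shares over all genes are low for that reason as well, and they are no measure for genes of microglia. In WT mice the difference of Tg-SwDI minus Non-Tg was 0.78 for C1qa, 0.60 for C1qb, 0.72 for C1qc, 0.70 for C4b and 0.86 for C3ar1, each without overlap between groups. In KO mice it was 1.14, 1.09, 1.10, 0.83 and 1.20, again without overlap. Itgb2 was at 0.55 with overlap in WT mice and 0.86 without overlap in KO mice. Itgam was at 0.07 in WT and 0.34 in KO mice with overlap in each, and C5ar1 was at -0.12 and 0.01 with overlap. C3 was at 0.40 and 1.07 with overlap. The 12 markers themselves changed by a log2 of 0.36 to 1.57 in WT and 0.62 to 1.91 in KO mice with the transgene. A difference from their mean therefore does not place a gene above every marker. These values also depend on how the list is summarised. With the median of the list in place of its mean, the sign turned for Itgam in WT mice (-0.17) and for C5ar1 in KO mice (-0.20). In WT mice C1qb was then at 0.36, C1qc at 0.48, C4b at 0.46, Itgb2 at 0.31, C3 at 0.16 and C5ar1 at -0.36, and Itgam in KO mice was at 0.12. With each mouse left out in turn, C5ar1 relative to the mean ranged from -0.22 to 0.04 in WT and -0.13 to 0.20 in KO mice, and Itgam in WT mice from 0.0041 to 0.10.

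For KO against WT in Tg-SwDI mice, differences relative to the list mean were smaller than with the transgene for all but Itgam and C5ar1. Itgam had been at 0.07 in WT and 0.34 in KO mice with the transgene, and C5ar1 at -0.12 and 0.01. C1qc was at 0.22 with no overlap, as were 0.0807% of all genes tested, between a mean of 1.51 in WT and 1.73 in KO mice. C1qb and Itgam were each at 0.28, C1qa at 0.13, C4b at 0.11, Itgb2 at 0.11, C3 at 0.29, C5ar1 at 0.09 and C3ar1 at 0.04, all with overlap between the groups. With each mouse left out in turn, C1qa ranged from 0.07 to 0.19, C4b from 0.07 to 0.17, C5ar1 from -0.07 to 0.16 and C3ar1 from -0.04 to 0.11. The sign turned without WT Tg-SwDI replicate 5 for C5ar1 and without KO Tg-SwDI replicate 8 for C3ar1. The list itself was at 5.77 ± 0.10 in WT and 6.02 ± 0.15 in KO Tg-SwDI mice on the log2 scale (SD, n = 5). A gene that did not change thus falls here too, which lowers the share of 0.0807% over all genes.

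**Figure D3:**
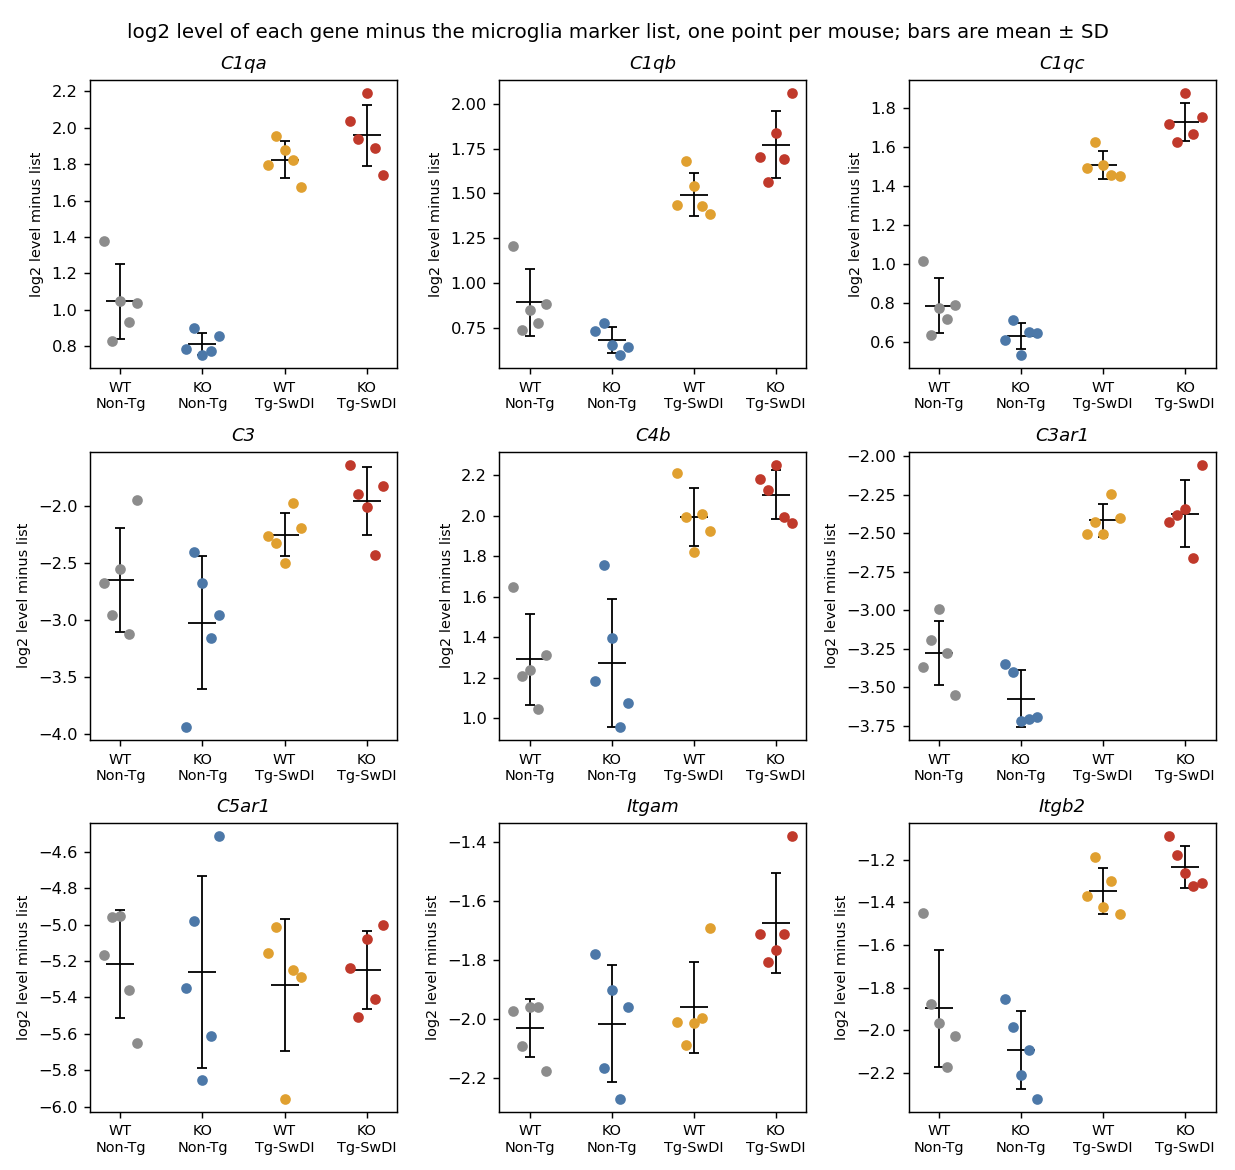
log2 level of each of the 9 genes minus the mean log2 level of 12 microglia markers, in each of 20 mice by group, with the mean ± SD of 5 mice. Tg-SwDI mice lie above Non-Tg mice for the C1q chains, C4b and C3ar1, the C5ar1 groups overlap throughout, and in the C1qc panel the KO Tg-SwDI points lie above the WT Tg-SwDI points.

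Mice of the same group also differed from each other in complement, and the genes did so to different extents. After subtracting group means, Pearson's r over 20 mice was above 0 for 35 of the 36 gene pairs, with a median of 0.38 and a range of -0.02 to 0.95. These mice share libraries and depth, so r is given as a description. The C1q chains were the closest, with r of 0.95 for C1qa and C1qc, 0.86 for C1qb and C1qc and 0.73 for C1qa and C1qb. Itgb2 followed the chains (0.71 to 0.78) and C4b (0.71), whereas its partner Itgam did not, with r of 0.28 to Itgb2 and 0.19 to 0.40 to the chains. The microglia list had r of 0.85 to C1qa, 0.81 to C1qc, 0.74 to Itgb2, 0.57 to C1qb, 0.36 to Itgam and 0.03 to C5ar1.

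**Figure D4:**
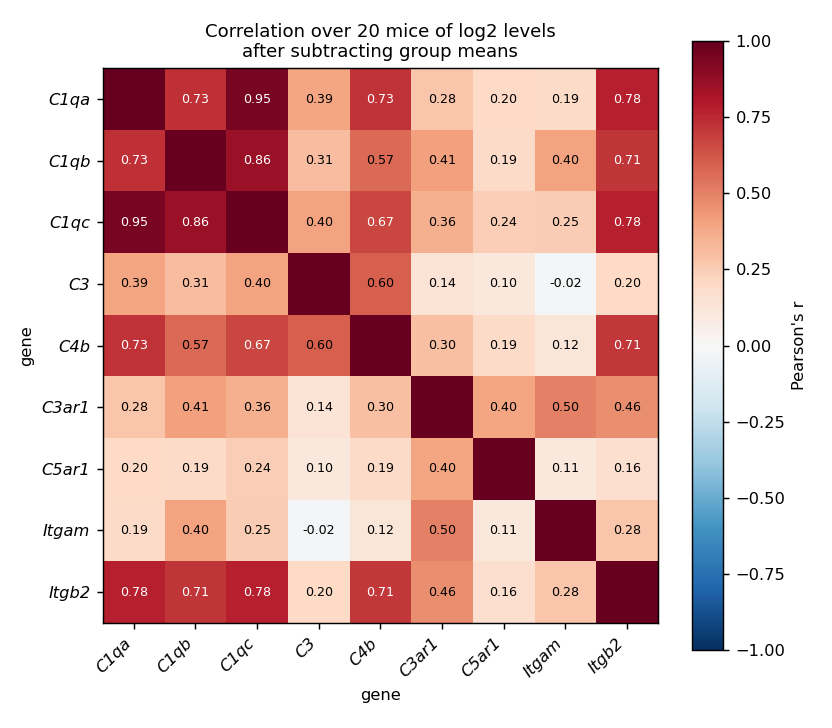
Pearson's r between the log2 levels of the 9 genes over 20 mice after subtracting group means, printed in each cell. C1qa, C1qb, C1qc, C4b and Itgb2 share values from 0.57 to 0.95, and the lowest value, -0.02, is that of C3 and Itgam.

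The genes tested that varied most like each of the 9 over these 20 mice were listed by the same measure. They are the highest of 16107 genes tested, so a search of this size picks out high values of r by itself. The r that unrelated genes would reach was not tested, which matters most for the lower values. For C1qa they were C1qc (r 0.95), Ctss (0.95), a lysosomal protease, and Itgb5 (0.91). For C1qb they were C1qc (0.86), Tyrobp (0.83), a signalling adaptor of myeloid receptors, and Pilra (0.83), and for C1qc they were C1qa (0.95), Ly86 (0.88) and Itgb5 (0.87). For C4b they were Tln1 (0.89), Arpc1b (0.88) and Dock8 (0.87), for Itgb2 Ikzf1 (0.87), Clec5a (0.85) and Igdcc4 (0.85), and for C3ar1 Pmp22 (0.87), Galnt4 (0.81) and Palld (0.81). For C3 they were Fgr (0.89), a kinase of myeloid cells, Fam216b (0.89) and Cfap161 (0.85), a protein of cilia. For Itgam they were Ank1 (0.81), Rnase6 (0.78) and Ankrd29 (0.77), and for C5ar1 Zbtb10, Prox2 and Med18 (each 0.73).

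Of 42 other complement genes on a fixed list, 25 had enough reads to be tested. The 17 that did not included the lectins Mbl1 and Mbl2, factor B (Cfb), factor D (Cfd), C6, C8a, C8b, C9 and factor I (Cfi), which were too low to follow at this depth. With the transgene, 2 of the 25 were called higher and 0 lower in WT mice, and 7 were called higher and 1 lower in KO mice, where 3.94% and 12.5% of all genes were called higher and 0.466% and 8.31% lower. The median log2 fold change of the 25 was 0.08 in WT and 0.14 in KO mice, beside 1.46 and 2.24 for the 9 genes. Both lists were chosen with earlier results of these data known, so the choice may have shaped this contrast.

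Clu, which encodes clusterin, a soluble inhibitor of the terminal complex that astrocytes make in large amounts, was at 900 to 1079 CPM in WT Non-Tg, 840 to 949 CPM in KO Non-Tg, 1157 to 1295 CPM in WT Tg-SwDI and 1304 to 1634 CPM in KO Tg-SwDI mice. The 4 groups overlapped only between WT and KO Non-Tg mice. With the transgene it was higher by a log2 of 0.30 in WT (adjusted p = 0.00202) and 0.68 in KO mice (adjusted p = 5.22e-09), and the interaction was 0.37 (adjusted p = 0.0463). That interaction call was lost with choroid plexus content as a covariate, with library size alone and in at least 13 of the 20 fits that left out 1 mouse. KO against WT in Tg-SwDI mice gave 0.21 (adjusted p = 0.0712).

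Itgax, which encodes CD11c, the alpha chain that pairs with the Itgb2 product in complement receptor 4, had the largest fitted change of the 25. It was at 2.50, 0.248, 0.704, 0.499 and 0.811 CPM in WT Non-Tg and 0.669, 0.900, 0.145, 0.240 and 0.628 CPM in KO Non-Tg mice. It was at 48.8, 56.4, 51.6, 56.0 and 43.4 CPM in WT Tg-SwDI and 77.3, 77.5, 56.6, 55.5 and 70.7 CPM in KO Tg-SwDI mice. The fold with the transgene was 52.8 in WT (adjusted p = 3.43e-10) and 129 in KO mice (adjusted p = 2.34e-11). Without WT Non-Tg replicate 2, the mouse at 2.50 CPM, the fold in WT mice was 89.5. Itgax over Itgam went from 0.13 ± 0.11 to 3.73 ± 0.69 (SD, n = 5) in WT mice and from 0.07 ± 0.05 to 3.32 ± 0.35 in KO mice. The ratio in WT Non-Tg mice was 0.08 ± 0.03 (SD, n = 4) without WT Non-Tg replicate 2.

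Other genes were called in KO mice with the transgene. Among them, Serping1 (the C1 inhibitor) was higher by a log2 of 0.87 (SE 0.26, adjusted p = 0.0266), C5ar2 (the second C5a receptor) by 1.24 (SE 0.27, adjusted p = 0.00158), Cd59b (an inhibitor of the terminal complex with a near copy, Cd59a) by 0.91 (SE 0.28, adjusted p = 0.0243) and Masp1 (a protease of the lectin pathway) by 0.33 (SE 0.11, adjusted p = 0.0314). Csmd1, a membrane inhibitor of complement in neurons, was lower by a log2 of -0.23 (SE 0.05, adjusted p = 0.00333). Choroid plexus markers moved in the same contrast, with 8 of 10 called higher, where 12.5% of all genes were. When choroid plexus content was a covariate, 4 of the 25 genes were called in place of 8. Over the whole table, 1221 genes were then called in place of 3351. The calls named here are those without the covariate, and which of them it removed is not given. KO against WT in Tg-SwDI mice called 0 of the 25 in the edgeR test and 1 by DESeq2, with 6 higher at an unadjusted p under 0.05, where 10.8% of all genes were. In Non-Tg mice both tools called 0 of the 25, with 1 higher and 3 lower at an unadjusted p under 0.05, where 3.58% and 4.51% of all genes were. Of the 25 genes, 4 were higher in every KO than in every WT Tg-SwDI mouse, among them Serping1, Clu and, named after its values were seen, C1ra, where 2.04% of all genes lay higher without overlap.

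**Figure D5:**
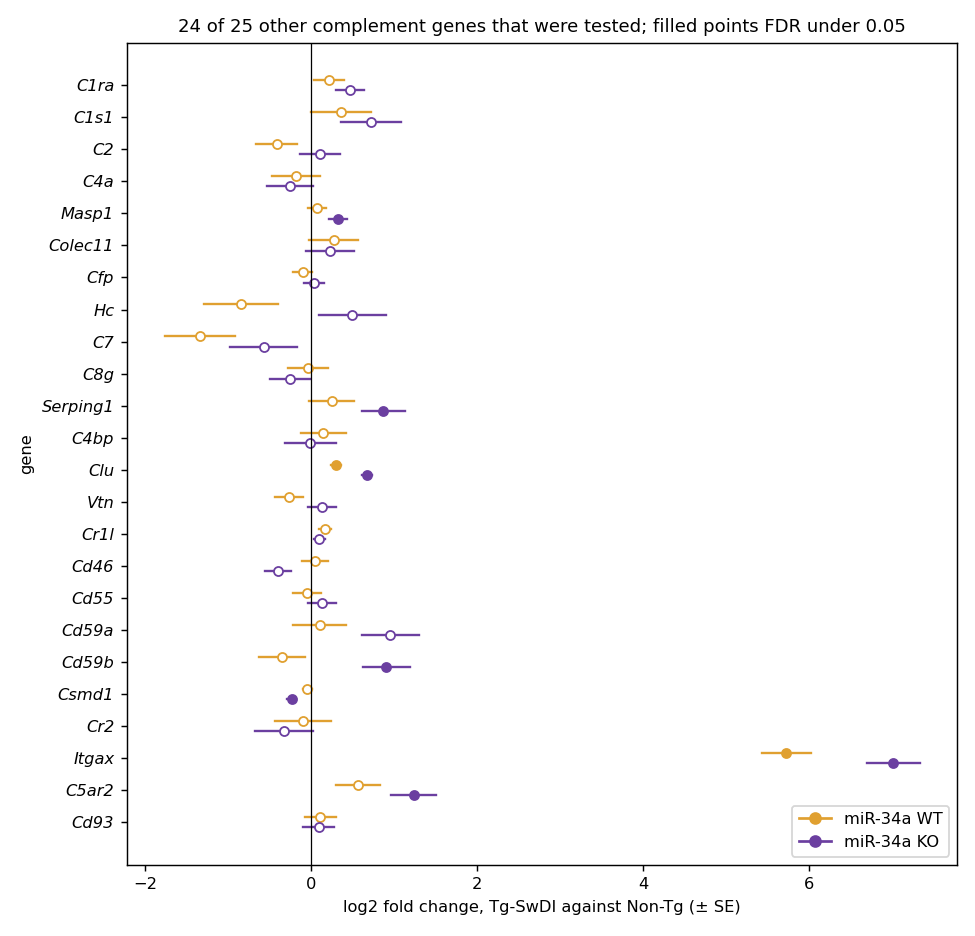
log2 fold change with the transgene (± SE) in WT and KO mice for 24 of the 25 other complement genes that were tested, filled where the adjusted p was under 0.05. Itgax lies at 5.72 and 7.01, far to the right of the rest, and Clu is the other gene filled in WT mice.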

How the data were processed

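RNA-seq of the left hippocampus gave 1 library per mouse from 20 mice. The authors aligned stranded mRNA reads to mm10 with STAR and counted them per ENSEMBL gene with featureCounts, and the deposited values are whole-number counts with no normalization. The strand and multi-mapping settings were not given in the sources used here. Symbols and positions were matched from GENCODE M21 for 38872 of 39056 genes (99.5%).

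Genes were filtered with filterByExpr (minimum count 10, minimum total 15), scaled by TMM and tested with edgeR 4.0.16 (quasi-likelihood, robust, R 4.3.3, limma 3.58.1) on 4 group means over all 20 mice, with 5 comparisons, 16 residual degrees of freedom and Benjamini-Hochberg adjustment over 16107 genes at 0.05. Intervals are 95%. CPM used TMM-scaled library sizes, and log2 levels a prior count of 2. The deposited counts were 19549622 to 21066868 per library, and genes with few counts, such as C5ar1, are the least precise. Alternatives were DESeq2 1.42.0, edgeR's exact test, other filters and scalings, the compared groups alone, a replicate block, a choroid plexus covariate and leaving out each mouse. The code was tested on simulated data.

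The genes and lists were chosen with earlier results of these data known. Named were all 9 genes, other complement genes called in any comparison, C4a, the leading gene of each marker list and the 3 genes with the highest r to each of the 9. Markers of microglia, border macrophages, monocytes, neutrophils, lymphocytes, astrocytes, oligodendrocytes, neurons, hippocampal subfields, endothelium, fibroblasts, choroid plexus and blood were summed. Some genes that this rule names are not reported here.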

Additional observations from a re-analysis of the deposited data

Results flagged for a closer look

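The difference in KO effect between Tg-SwDI and Non-Tg mice passed the edgeR interaction test for C1qb (log2 0.82, adjusted p = 0.0199) and C1qc (log2 0.71, adjusted p = 0.0199). Both calls were lost without KO Non-Tg replicate 7 (adjusted p = 0.0513 and 0.0509), and with choroid plexus content as a covariate each stood at an adjusted p of 0.0498. In Tg-SwDI mice 5 of 5 KO mice lay above all WT mice for each gene, while in Non-Tg mice the groups overlapped.

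Of 36 groups of 5 mice checked for a mouse far from the others, 2 held one, and chance alone gives about 1 in 20. KO Tg-SwDI replicate 5 was low for C3ar1, at 9.17 CPM where the other 4 mice were at 12.9 to 14.0 CPM. WT Non-Tg replicate 2 was high for Itgb2, at 11.7 CPM where the other 4 mice were at 6.24 to 7.58 CPM.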

How the results depend on the processing

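All 9 genes stayed called with the transgene in KO mice under every alternative, and 8 or 9 did in WT mice, where C5ar1 was the gene lost. For KO against WT in Tg-SwDI mice, the 3 calls became 0 with the replicate block, 4 with DESeq2 and with edgeR's exact test, and 2 to 4 when single mice were left out. Same-numbered mice showed little likeness, as 2 of 16 same-numbered pairs had r over 0.1 (range -0.40 to 0.15) and 5 of 32 matches were best with their own number. What the replicate numbers stand for is not given, and this check cannot show that they carry no meaning. With the block, genes called over the whole table numbered 8 in place of 320 in that comparison and 38 in place of 98 for the interaction, other complement genes called with the transgene in KO mice 5 in place of 8, and the interaction kept 0 in place of 2 of the 9 genes and 0 in place of 1 of the others. DESeq2 called 733 genes in KO against WT in Tg-SwDI mice, 7 in Non-Tg mice (0 in the main test) and 482 for the interaction, where it called 6 of the 9 genes. The edgeR exact test gave 565 and 4 in the first 2 of these and 4 other complement genes with the transgene in WT mice in place of 2. The compared groups alone gave 58 and 1, and no filter gave 1 in Non-Tg mice. With the choroid plexus covariate the counts were 580 for KO against WT in Tg-SwDI mice, 1221 in place of 3351 with the transgene in KO mice and 31 for the interaction, with 4 and 0 other complement genes in the last 2. Library size alone gave 59 and 0 for the interaction. DESeq2, the compared groups alone and the covariate each called 1 other complement gene in KO against WT in Tg-SwDI mice, in place of 0. Over single mice left out, counts over the whole table were 78 to 701 (KO against WT in Tg-SwDI), 0 to 3 (Non-Tg), 2495 to 3741 (transgene in KO) and 14 to 510 (interaction), those of other complement genes were 0 to 2, 2 to 3 (transgene in WT), 5 to 10 (transgene in KO) and 0 to 2 (interaction), and those of the 9 genes for the interaction were 0 to 4. In KO against WT in Non-Tg mice, where nothing was called, the sign turned for C4b without WT Non-Tg replicate 2 (0.064) or KO Non-Tg replicate 7 (0.0017; range over mice left out -0.22 to 0.06), for C5ar1 without WT Non-Tg replicate 4 (0.02), KO Non-Tg replicate 4 (0.10) or KO Non-Tg replicate 7 (0.06; range -0.31 to 0.10), and for Itgam without WT Non-Tg replicate 2 (0.01), KO Non-Tg replicate 2 (0.0024) or KO Non-Tg replicate 7 (0.026; range -0.11 to 0.03). Leaving mitochondrial genes out of the counts, chosen after seeing the data, kept all counts for the 9 genes. The cause of these changes was not tested.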

Other observations

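Astrocyte markers, led by Slc1a2, summed to 4908 ± 184 CPM in WT and 5142 ± 137 CPM in KO mice without the transgene and to 6507 ± 315 CPM in WT and 7139 ± 679 CPM in KO mice with it (SD, n = 5), and 5 of 7 were called higher with the transgene in WT and 4 of 7 in KO mice. Oligodendrocyte markers, led by Mbp, had 0 of 7 called in WT and 4 of 7 called higher in KO mice with the transgene. Neuron markers, led by Syt1, had 0 called in WT mice and 2 called lower in KO mice. Of the 6 endothelial markers, led by Flt1, 1 was called lower in WT and 1 higher in KO mice with the transgene. Of all genes tested, 3.94% were called higher and 0.466% lower with the transgene in WT mice, and 12.5% and 8.31% in KO mice. A single call in a short list is therefore not read as a shift of that cell type. For KO against WT in Tg-SwDI mice 1 of 6 endothelial and 1 of 7 astrocyte markers were called higher, where 1.48% of all genes were. Fibroblast markers, led by Dcn, summed to 129 to 218 CPM and blood markers, led by Hbb-bs, to 1.55 to 22.7 CPM in single mice, with 0 called in any comparison by edgeR. At an unadjusted p under 0.05, 1 fibroblast marker was higher in the KO group of Tg-SwDI mice, where 10.8% of all genes were, and 0 blood markers passed. Choroid plexus markers, led by Ttr, summed to 1965 ± 1898 CPM in WT and 177 ± 112 CPM in KO mice without the transgene and to 2856 ± 1537 CPM in WT and 2675 ± 1569 CPM in KO mice with it. The leading genes of the monocyte, neutrophil and lymphocyte lists were Ccr2, Ngp and Cd79a.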
